A study of Mus musculus with 9 samples.

Results

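Bone morphogenetic proteins (BMPs) and their secreted antagonists were examined as a set of 10 genes, 6 encoding ligands (Bmp2, Bmp4, Bmp6, Bmp7, Bmp8b and Gdf6) and 4 encoding antagonists (Nog, Chrd, Fst and Grem1). They were taken by gene symbol from the 47729 genes in the FPKM table (a level scaled for gene length and for the number of mapped fragments). The libraries came from mouse embryonic stem cells (ESCs) in LIF/serum carrying a doxycycline (dox)-inducible transgene for a forced E2A homodimer, in which E47 proteins, encoded by the E2A gene Tcf3, are tethered to each other so that they pair. In all, 3 replicates were collected without dox (0 h), 3 after 18 h and 3 after 24 h with dox at 1 µg/ml, so every library carried the transgene and the 0 h cells received no dox. Dox-treated cells lacking the transgene were not analysed here, so the effect of dox and that of the homodimer cannot be told apart. The labels call the replicates separate samples of 1 cell line, and p values therefore measure only the spread between these samples.

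BMPs are secreted dimers of the TGFβ family. They bring type I and type II serine/threonine kinase receptors together on the cell surface, which leads to phosphorylation of Smad1, Smad5 and Smad9 and to transcription of targets such as the Id genes. Antagonists act outside the cell by binding the ligands before they reach the receptors. In ESC culture, BMP from serum acts with LIF to maintain self-renewal, and blocking BMP signalling favours neural differentiation.

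Each library held between 22028363 and 26471569 reads on genes. Tcf3, which also collects reads from the transgene, averaged 39.1±1.8 FPKM (mean±s.d., n=3) without dox, then 110±5.52 by 18 h and 102±7.55 by 24 h. None of 8 ESC markers was called in either direction at 18 h or 24 h with limma, also with edgeR or DESeq2, although 1 was higher and 2 were lower at 18 h at an unadjusted p below 0.05, and 1 was higher and 1 lower at 24 h. Pou5f1 stood at 371±53.3, 290±33.1 and 248±33.4 FPKM in time order, and Nanog went the other way, at 40.6±5.51, 56.8±8.96 and 73.4±8.12 FPKM. At 24 h both passed the threshold in limma with sizes under the minimum (log2 difference -0.58, adjusted p=0.022, and 0.86, adjusted p=0.00735). With a replicate block in limma, which pairs same-numbered libraries, both passed it at 18 h and at 24 h. So did Klf4 (log2 difference 0.38 at 24 h, adjusted p=0.0101), Tfcp2l1 (-0.56, 0.00864) and Dppa5a (-0.35, 0.00338), all with sizes under the minimum. Sox2, Zfp42 and Esrrb did not pass it at either time.

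Bmp7 was the only one of the 10 genes whose transcript changed past both thresholds, and it rose at both times. Genes were called in limma, fitted across the 17951 genes averaging 0.1 FPKM or more, where the Benjamini–Hochberg adjusted p did not exceed 0.05 and the log2 fold-change reached 1 in size. Of the 10 genes, 9 passed this filter and Grem1 did not. At 18 h 1 member was higher, where 1.33% of all genes tested were called higher, and 0 were lower, where 0.724% were called lower. At 24 h 1 was again higher and 0 were lower, beside 2.07% and 0.836% of all genes. No member differed between 24 h and 18 h in either direction, with 0.0167% of all genes called higher and 0.00557% lower. edgeR and DESeq2 on the recovered reads gave the same counts, and at an unadjusted p below 0.05 limma had 2 members higher and 0 lower at 18 h and at 24 h, and 0 in either direction between 24 h and 18 h. The median log2 fold-change of the 9 members tested was 0.012 at 18 h and 0.19 at 24 h, and that of all genes tested was -0.003 and 0.004.

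**Figure D1:**
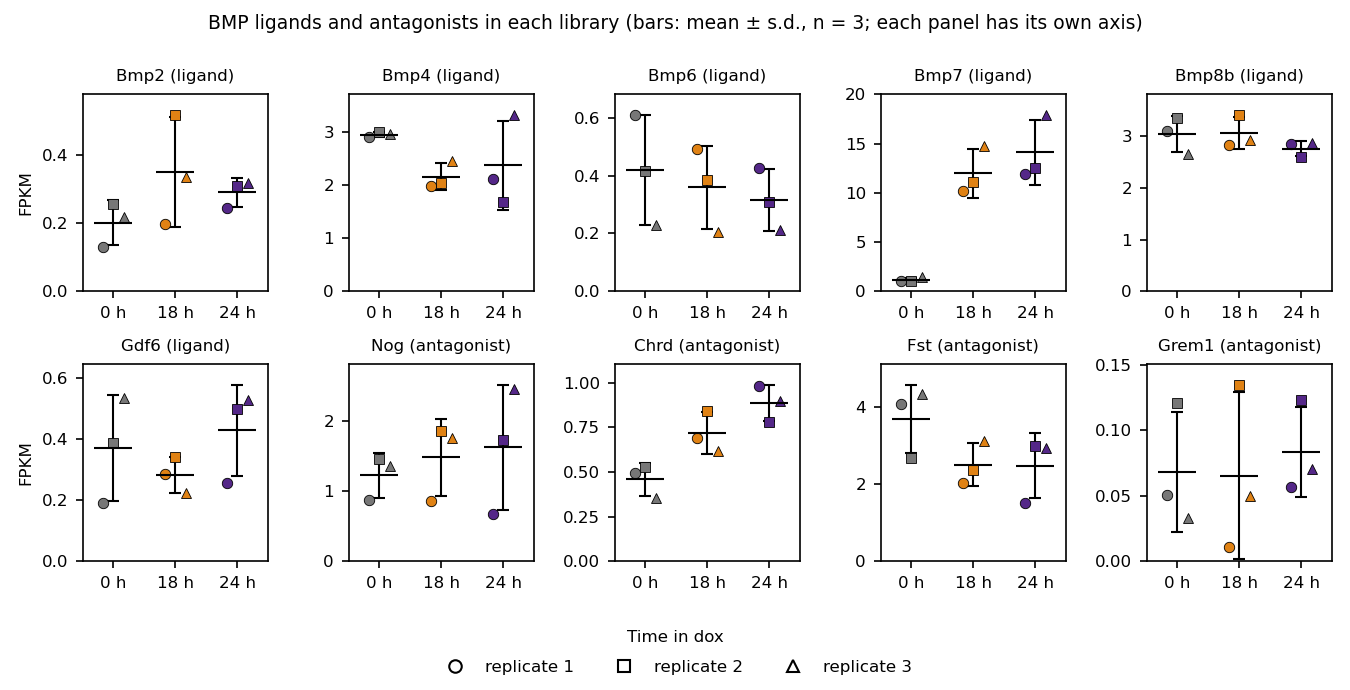
FPKM of each of the 10 genes in every library, by time in dox on the horizontal axis, with 1 symbol per replicate and bars for mean±s.d. (n=3). Bmp7 moved from between 1.02 and 1.42 FPKM at 0 h to between 11.9 and 17.9 FPKM at 24 h, whereas the 0 h and 24 h libraries of every other gene except Chrd overlapped.

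Bmp7 (ENSMUSG00000008999), on the minus strand of chromosome 2 (chr2:172868012-172940321, GRCm38), encodes a ligand of the subgroup that also contains Bmp5, Bmp6 and the Bmp8 proteins. Its level was 1.02, 1.04 and 1.42 FPKM in replicates 1, 2 and 3 at 0 h, from 98, 100 and 124 reads. At 18 h it was 10.2, 11.1 and 14.8 FPKM, from 935, 1110 and 1443 reads. At 24 h it was 11.9, 12.5 and 17.9 FPKM, from 1213, 1287 and 1956 reads. All libraries with dox lay above all 0 h libraries, and replicate 3 was the highest at each time. The log2 fold-change (on FPKM plus 0.1, here and below) was 3.26±0.197 (s.e.m.) at 18 h compared with 0 h, a 9.6-fold difference with adjusted p=0.000104 in limma. At 24 h it was 3.49±0.197, an 11.2-fold difference with adjusted p=5.83e-05. Most of this difference was present by 18 h. Bmp7 was higher at 24 h than at 18 h in 3 of 3 replicates, but the libraries of these times overlapped and the log2 difference of 0.22 (95% confidence interval -0.22 to 0.66) had an adjusted p of 0.97.

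The other members of the Bmp7 subgroup, Bmp8b and Bmp6, were not called. Bmp8b (ENSMUSG00000002384, chr4:123105165-123132099, plus strand) had 3.1, 3.35 and 2.66 FPKM without dox, 2.83, 3.41 and 2.93 after 18 h, and 2.84, 2.59 and 2.86 after 24 h. The libraries overlapped throughout, and the log2 fold-change was 0.012 (95% confidence interval -0.25 to 0.27) at 18 h and -0.13 (-0.39 to 0.14) at 24 h. This was the narrowest interval among the members and did not reach 1 in either direction. With single libraries left out, the 24 h value of Bmp8b ran from -0.22 to -0.055. Bmp6 (ENSMUSG00000039004, chr13:38345107-38500302, plus strand) was low, with 12 to 35 reads per library and 0.418±0.19, 0.36±0.143 and 0.316±0.106 FPKM in time order. Its replicates kept one order at all times, with replicate 1 the highest (0.609, 0.49 and 0.425 FPKM) and replicate 3 the lowest (0.229, 0.206 and 0.213 FPKM). Bmp6 was lower than the same-numbered 0 h library in 3 of 3 replicates at both times, by less than the spread between replicates. On the log2 scale limma gave -0.15 (adjusted p=0.824) for 18 h and -0.28 (adjusted p=0.653) for 24 h. Leaving out single libraries moved the 24 h value of Bmp6 between -0.57 and -0.018.

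Both of these genes share exon sequence with a more abundant gene on the opposite strand. Bmp6 shares 224 of 3900 exonic nucleotides with Txndc5, which was at 39.3 FPKM at 0 h and 40.8 at 24 h, and Bmp8b shares 133 of 3880 with Ppie, at 35.5 and 33.3 FPKM. The libraries were stranded, but how strand was used in counting is not given in the sources used here, so the levels of Bmp6 and Bmp8b are uncertain. Bmp8b also has a close paralogue, Bmp8a, which was at 0.855±0.235, 1.06±0.0771 and 0.69±0.198 FPKM and was not called, and reads common to both could be split between them. Bmp7 overlapped no other gene of the table.

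Bmp4 and Bmp2, close relatives that signal as homodimers or together, had fold-changes of opposite sign, and neither was called. Bmp4 (ENSMUSG00000021835, chr14:46383520-46390669, minus strand) was at 2.9, 3.0 and 2.96 FPKM at 0 h and at 1.99, 2.04 and 2.45 at 18 h. All 18 h libraries were below all 0 h libraries, and Bmp4 was the only member that was separated downwards at 18 h, as 13.7% of all genes tested were. The log2 fold-change was -0.44 (95% confidence interval -0.91 to 0.03, adjusted p=0.224 in limma). At 24 h Bmp4 was at 2.11, 1.69 and 3.32 FPKM, from 119, 96 and 201 reads, so replicate 3 stood above every 0 h library and the times overlapped. No member was separated downwards at 24 h, against 14.6% of all genes tested. Bmp2 (ENSMUSG00000027358, chr2:133552159-133562885, plus strand) rested on 11 to 46 reads per library. It was higher than the same-numbered 0 h library in 3 of 3 replicates at both times, with means of 0.202±0.0658, 0.351±0.162 and 0.291±0.0413 FPKM in time order, but the libraries overlapped. The log2 fold-change of Bmp2 was 0.54 (95% confidence interval -0.16 to 1.24) and then 0.39 (-0.31 to 1.09), with an adjusted p of 0.317 and 0.449 from limma across all genes. These intervals of Bmp2 included 0, and leaving out single libraries gave 0.28 to 0.81 at 18 h and 0.2 to 0.52 at 24 h.

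Gdf6 (ENSMUSG00000051279, chr4:9844372-9862345, plus strand), a relative of Gdf5 and Gdf7 that acts in joint and eye development, was also low. Its values were 0.19, 0.389 and 0.534 FPKM without dox, 0.285, 0.341 and 0.222 after 18 h, and 0.256, 0.499 and 0.53 after 24 h. The libraries of all times overlapped, and the adjusted p in limma was 0.7 at 18 h and 0.752 at 24 h.

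The single rise changed the make-up of the ligand transcripts. The FPKM of the 6 ligands summed to 8.14±0.27 without dox, 18.3±2.53 after 18 h and 20.2±4.22 after 24 h (n=3 each). Without Bmp7 the sums were 6.98±0.407, 6.21±0.453 and 6.17±0.96 FPKM. Bmp7 thus made up 14.3±2.96% of the ligand sum at 0 h, 65.6±4.5% at 18 h and 69.3±2.21% at 24 h. Across single libraries its share ran from 12.3% to 17.7% at 0 h and from 62.3% to 71.2% with dox, with no overlap. In the order of levels at 0 h, Fst (3.7±0.881 FPKM), Bmp8b (3.04±0.352) and Bmp4 (2.95±0.0473) came first and overlapped one another, and Nog (1.22±0.314) and Bmp7 (1.16±0.225) followed and also overlapped. At 18 h and 24 h Bmp7 (12.0±2.48 and 14.1±3.28 FPKM) was first, and its lowest library was above the highest library of Bmp8b, the next gene. Among the rest of the members at 18 h, Bmp8b, Fst and Bmp4 overlapped as neighbours in the order, as did Bmp6, Bmp2 and Gdf6. At 24 h this held for Bmp8b, Fst, Bmp4, Nog and Chrd and, lower down, for Gdf6, Bmp6 and Bmp2. Grem1 was last at each time.

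**Figure D2:**
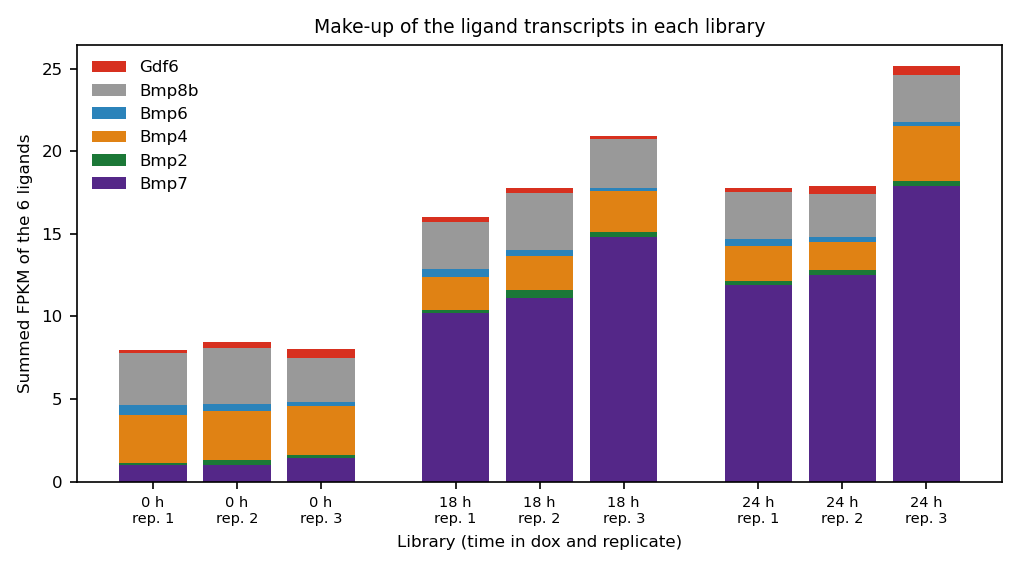
Summed FPKM of the 6 ligand genes in each of the 9 libraries, grouped by time in dox, with each ligand in its own colour. The Bmp7 segment at the base of the bars grew from between 12.3% and 17.7% of the sum at 0 h to between 62.3% and 71.2% with dox, while the other segments summed to between 5.39 and 7.41 FPKM in every library.

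Among the antagonists, Chrd was the one whose libraries separated by time. Chordin, its product, binds BMP2, BMP4 and BMP7 and is cut by tolloid proteases. Chrd (ENSMUSG00000006958, chr16:20733127-20742384, plus strand) was at 0.496, 0.528 and 0.355 FPKM at 0 h, from 69, 74 and 45 reads. It was at 0.689, 0.845 and 0.616 FPKM at 18 h, from 92, 123 and 87 reads, and at 0.984, 0.779 and 0.899 FPKM at 24 h, from 146, 116 and 143 reads. Every library with dox lay above every 0 h library. Chrd and Bmp7 were the 2 members separated upwards at each time, which 14.4% of all genes tested were at 18 h and 16.7% at 24 h.

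The difference in Chrd was smaller than the minimum for a call. Its log2 fold-change was 0.55 (95% confidence interval 0.11 to 0.99, adjusted p=0.118 in limma) at 18 h and 0.83 (0.39 to 1.27, adjusted p=0.0278) at 24 h. It was therefore 1 of 2 members, with Bmp7, higher at 24 h by adjusted p alone, a criterion that 6.52% of all genes tested met. The adjusted p for Chrd at 24 h was above 0.05 when 0 h replicate 1 (0.0618), 0 h replicate 3 (0.0647), 24 h replicate 1 (0.0735), 24 h replicate 2 (0.062) or 24 h replicate 3 (0.0908) was left out. On the recovered reads, edgeR gave a log2 fold-change of 0.94 with adjusted p=0.00852. Chrd shares 239 of 6258 exonic nucleotides with Thpo on the opposite strand, which was at 0.759 FPKM without dox and 0.624 after 24 h, and was not called.

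Fst (ENSMUSG00000021765, chr13:114452290-114458951, minus strand) encodes follistatin, which binds activins most tightly and some BMPs more weakly. Its level was 4.07, 2.69 and 4.33 FPKM without dox, 2.02, 2.37 and 3.11 after 18 h, and 1.52, 2.98 and 2.94 after 24 h. Fst was lower than the same-numbered 0 h library in 3 of 3 replicates at 18 h, but 0 h replicate 2 lay within the range of the libraries with dox. The log2 fold-change was -0.54 (95% confidence interval -1.17 to 0.096, adjusted p=0.27 in limma) at 18 h and -0.59 (-1.22 to 0.046, adjusted p=0.207) at 24 h. Leaving out single libraries moved it between -0.75 and -0.4 at 18 h and between -0.8 (without 0 h replicate 2) and -0.28 (without 24 h replicate 1) at 24 h.

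Nog (ENSMUSG00000048616, chr11:89300638-89302332, minus strand), which encodes noggin, a high-affinity inhibitor of BMP2 and BMP4 in neural induction, varied more between replicates than between times. Replicate 1 was the lowest at every time, with 0.866, 0.851 and 0.673 FPKM in time order. Replicates 2 and 3 were between 1.36 and 2.45 FPKM. The log2 fold-change of Nog had the widest intervals of the members, 0.22 (-0.77 to 1.21) at 18 h and 0.24 (-0.75 to 1.23) at 24 h, and these intervals did not exclude a rise slightly above the minimum of 1. They came from the fit without a replicate block, so they include the differences between replicate numbers. With the block in limma, the adjusted p of Nog was 0.473 at 18 h and 0.413 at 24 h. The collagen gene Col1a2, on the list of fibroblast markers, was likewise lowest in replicate 1 at each time, at 1.17, 1.07 and 1.22 FPKM against 2.42 to 4.97 in the other replicates. So were Col1a1, Col3a1, Dcn and the low Postn of the same list. The sum of the 6 fibroblast markers ran from 6.99 to 14.6 FPKM at 0 h and from 6.08 to 10.7 at 24 h, and 0 of them were called in either direction by limma, edgeR or DESeq2, with 0 higher and 1 lower at each time at an unadjusted p below 0.05. The lower one was Thy1, with a log2 difference of -0.75 (adjusted p=0.0573, limma) after 18 h and -0.74 (adjusted p=0.0494) after 24 h. Thy1 was highest in replicate 1 at 0 h and 18 h (2.39 and 1.49 FPKM), unlike the other markers of this list. The part of these markers in the level of Nog was not tested.

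Grem1 (ENSMUSG00000074934, chr2:113746164-113758646, minus strand), which encodes gremlin 1 of the DAN family, lay near the floor. Its reads numbered 5, 12 and 3 without dox, 1, 14 and 5 after 18 h, and 6, 13 and 8 after 24 h. Its mean of 0.0723 FPKM put it below the filter. Replicate 2 was the highest at all times, and the libraries of all times overlapped. The antagonists together summed to 5.45±0.641, 4.77±1.05 and 5.07±1.64 FPKM in time order, with overlapping libraries. In these bulk libraries, fewer cells making a transcript and less of it per cell cannot be told apart.

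**Figure D3:**
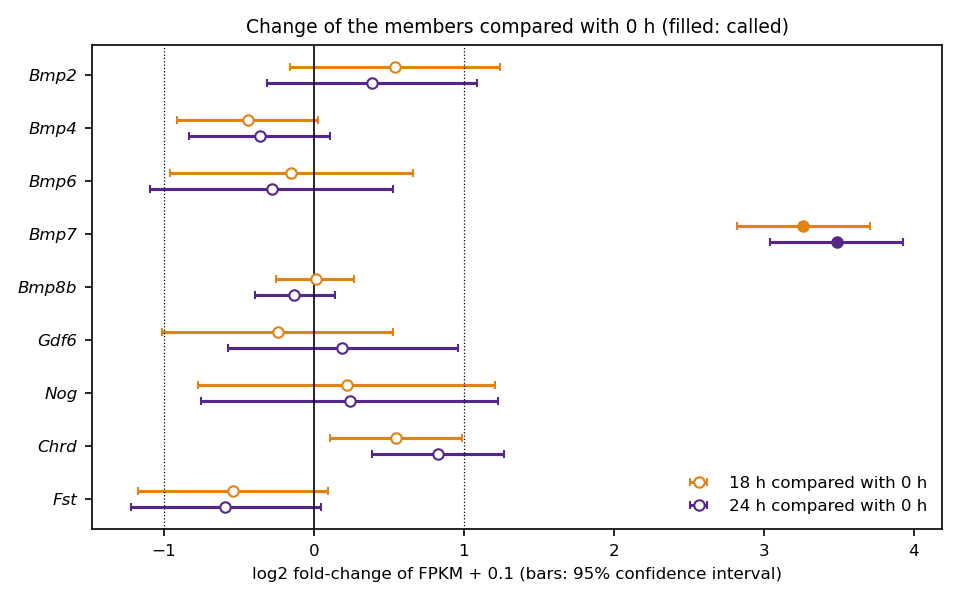
The log2 fold-change of the 9 members tested, on FPKM plus 0.1, at 18 h and at 24 h compared with 0 h, with 95% confidence intervals from limma, filled symbols for called genes and dotted lines at the minimum of 1. Bmp7 stood at 3.26 and 3.49, and the interval of Chrd at 24 h, from 0.39 to 1.27, was the only other one at 24 h that did not include 0.

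E proteins and their dimers bind E-boxes, DNA sites of the form CANNTG, so promoters are shown with these letters in capitals. RefSeq promoter sequences (GRCm38.p6) matched 5 of the 10 members, Grem1, Bmp8b, Bmp6, Bmp4 and Chrd. The sequences below run 5′ to 3′ on the strand of the gene, from 250 bases before the start to 30 bases from it, for Bmp4 (chr14:46390640-46390919, minus strand) and Chrd (chr16:20732877-20733156, plus strand), the genes with an entry whose libraries separated from 0 h, although neither was called.
Bmp4: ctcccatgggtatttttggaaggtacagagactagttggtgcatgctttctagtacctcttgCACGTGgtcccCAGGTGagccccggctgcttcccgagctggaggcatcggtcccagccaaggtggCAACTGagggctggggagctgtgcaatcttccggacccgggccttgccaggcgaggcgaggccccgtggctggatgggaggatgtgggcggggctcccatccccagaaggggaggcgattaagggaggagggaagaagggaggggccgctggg
Chrd: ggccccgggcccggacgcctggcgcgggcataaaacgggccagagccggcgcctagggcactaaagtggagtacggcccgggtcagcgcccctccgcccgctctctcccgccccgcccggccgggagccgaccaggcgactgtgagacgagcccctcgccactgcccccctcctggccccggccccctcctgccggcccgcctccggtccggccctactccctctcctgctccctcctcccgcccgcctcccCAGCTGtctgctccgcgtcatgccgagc

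CANNTG reads the same class of site on both strands, and it was searched in the whole windows, from 250 bases before to 50 after the start. Bmp4 held 3 matches, CACGTG at -188, CAGGTG at -177 and CAACTG at -123, given as the place of the first base with the start base as 1. Chrd held 1, CAGCTG at 3. Bmp6 had CACGTG at -127 and CACCTG at -51, Bmp8b had CAGATG at -233, and the Grem1 window had none. The Bmp6 window, chr13:38345466-38345765, lies past the gene start of 38345107 given above. The places in Bmp6 therefore count from a RefSeq start within the gene. Of 32851 promoters in the same table, 72.3% held at least 1 CANNTG, 20.2% held CAGGTG or its reverse complement CACCTG, and 16.3% held CAGCTG. A match of these letters is a description of the window, and binding was not measured here.

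Around the members, the gene next to Bmp7 on the side of its start was the only neighbour or overlapping gene called at 24 h. Spo11, which encodes the nuclease that starts meiotic recombination, lies 37.4 kb away on the opposite strand. Its level was 0.0428, 0.149 and 0.0938 FPKM without dox, 0.379, 0.44 and 0.548 after 18 h, and 0.331, 0.49 and 0.871 after 24 h. All its libraries with dox were above those without, with log2 differences of 1.54 (adjusted p=0.027, limma) after 18 h and 1.72 (adjusted p=0.0146) after 24 h. The Spo11 level at 24 h was 0.564±0.277 FPKM, far below that of Bmp7.

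Over the 9 libraries, the genes whose log2 values ran most like those of Bmp7, among 11893 with a mean of at least 1 FPKM, were C130021I20Rik (Pearson's r=0.995), Hprt (0.993) and Igdcc4 (0.992). These correlations describe libraries that share time and replicate. Hprt, upstream of which the transgene had been inserted, was at 11.4±1.92, 41.0±3.49 and 48.2±4.07 FPKM in time order. C130021I20Rik averaged 0.0529, 1.38 and 2.03 FPKM, and Igdcc4, which encodes an immunoglobulin-superfamily protein, averaged 6.28, 12.1 and 12.5.

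The rest of the pathway was described with 91 further genes in 7 lists, of which 68 passed the filter. These lists also hold genes of the Nodal and activin branch, among them Nodal, Lefty2, Tdgf1 and Smad3. The counts of the 68 are therefore not for BMP genes alone. At 18 h 9 were higher and 2 lower, and at 24 h 14 were higher and 2 lower, with a median log2 fold-change of 0.25 and 0.31. Target genes made up 7 of the 9 and 10 of the 14. Over all genes tested, 1.33% were higher and 0.724% lower at 18 h, and 2.07% and 0.836% at 24 h. The median over all genes was -0.003 and 0.004. None of the 68 was called between 24 h and 18 h with limma, edgeR or DESeq2. At an unadjusted p below 0.05 limma had 3 of them higher and 1 lower.

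Of 22 other ligands, 13 were tested, and none was called higher by limma at either time. At an unadjusted p below 0.05, 0 were higher at 18 h and 2 at 24 h, and edgeR and DESeq2 each called 0 at 18 h and 1 at 24 h. Lefty2, a secreted inhibitor of Nodal and thus no BMP agonist, fell from 12.3±2.05 FPKM to 3.5±0.759 by 18 h (log2 fold-change -1.79, adjusted p=0.00211 in limma), whereas at 24 h it was at 6.68±1.54 (-0.88, adjusted p=0.0271), short of the minimum. Without 24 h replicate 1 Lefty2 was also called at 24 h, with -1.05. Gdf15, a stress-induced distant family member, was called lower at 24 h (log2 fold-change -1.59, adjusted p=0.0407), from 1.86, 0.472 and 1.39 FPKM at 0 h to 0.34, 0.233 and 0.317. Gdf15 was also called lower at 18 h with the replicate block (adjusted p=0.0427), without 0 h replicate 2 (0.00571), in edgeR (0.0176) and in DESeq2 (0.0021). Its call at 24 h was lost with a pseudocount of 1 FPKM (log2 difference -0.74), with no filter on low values or with only the time points compared, and without either 0 h replicate 1, 0 h replicate 3, or any single 18 h or 24 h library, with adjusted p values up to 0.128. The most abundant ligand transcripts of this list at 0 h were Lefty1 (45.3±3.82 FPKM), Gdf3 (31.0±3.66) and Nodal (22.6±1.53), none of them called. All were above the 0 h level of any member. Lefty1 was at 79.9±20.9 FPKM at 24 h, and its 24 h libraries lay above all its 0 h libraries. Its log2 fold-change of 0.79 (adjusted p=0.0209, limma) was short of the minimum.

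Of 21 other antagonists, 12 were tested, 2 were higher at 18 h and 3 at 24 h, and none was lower at either time with limma (0 also at an unadjusted p below 0.05, and 0 with edgeR or DESeq2). Nbl1, a DAN-family BMP antagonist like gremlin 1, rose from 0.887, 1.7 and 1.76 FPKM without dox to 4.43, 4.76 and 5.94 by 18 h, with 4.26, 5.32 and 5.38 after 24 h. Its libraries with dox were all above those without, and the log2 fold-change was 1.78 (adjusted p=0.00392, limma) and 1.76 (adjusted p=0.00294). Nbl1 was thus the antagonist with a called rise at the level of several FPKM. Smoc2, a matricellular protein related to a BMP inhibitor, had 5, 9 and 6 reads without dox and 23, 24 and 51 after 24 h, and limma gave 1.33 (adjusted p=0.0241) for 18 h and 1.37 (adjusted p=0.0177) for 24 h on the log2 scale. The Smoc2 call was lost at 18 h without 0 h replicate 1 or 3 or 18 h replicate 2 or 3, and at 24 h without 0 h replicate 1 or 24 h replicate 3, with adjusted p values up to 0.0927 and 0.0605. With a pseudocount of 1 FPKM it was lost at both times (log2 differences of 0.35 and 0.38), and at 24 h with only the time points compared (adjusted p=0.0528). Sost, which encodes sclerostin, had 1, 1 and 0 reads without dox and 6, 11 and 21 after 24 h. It was called at 24 h (adjusted p=0.0352) but not without any 0 h library, 18 h replicate 2 or 3, or 24 h replicate 2, where adjusted p reached 0.0985, and with all its 0 h libraries under the floor of 3 reads no fold is given. Its call at 24 h was also lost with a pseudocount of 1 FPKM (adjusted p=0.0618) or with only the time points compared (0.0692). At 18 h Sost was not called by limma (adjusted p=0.12). It was called at 18 h by edgeR (adjusted p=0.0419), also with the replicate block (0.00911), and edgeR had 3 of this list higher then. Fstl1 (20.6±2.97 FPKM at 0 h) and Twsg1 (12.9±0.723) were the most abundant of this list and were not called.

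Of 13 receptors and co-receptors, 12 were tested. Tdgf1, the Nodal co-receptor Cripto, fell from 131±12.1 FPKM without dox to 54.2±6.14 by 18 h, with 47.5±4.38 after 24 h. Its log2 fold-change was -1.27 (adjusted p=0.000295, limma) and -1.46 (adjusted p=0.000115). Rgma, a membrane-anchored BMP co-receptor, rose at 24 h, from 0.259±0.0181 to 0.83±0.138 FPKM (log2 fold-change 1.36, adjusted p=0.00874), and at 18 h, where its log2 fold-change was 0.94, it was not called in the fit on all libraries. It was called at 18 h without 18 h replicate 1 (1.1) and on the recovered reads in edgeR (1.23, adjusted p=0.00968) and DESeq2 (1.23, adjusted p=0.000475), and with a pseudocount of 1 FPKM its call at 24 h was lost (0.54). The receptors that bind BMPs directly were not called. Bmpr1a was at 19.4±1.34, 20.6±1.55 and 22.1±1.99 FPKM, and Bmpr2 at 2.23±0.225, 2.82±0.459 and 2.96±0.531.

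None of the 5 of 7 processing enzymes, the 5 of 6 Smads or the 7 of 7 feedback inhibitors that were tested was called by limma at 18 h or 24 h. At an unadjusted p below 0.05, at 24 h, 1 enzyme was higher and 1 lower, 3 Smads were higher and 3 feedback inhibitors were higher, and at 18 h 2 enzymes were higher and 1 lower, with 3 Smads and 3 feedback inhibitors higher. At 24 h edgeR and DESeq2 each called 1 enzyme higher and otherwise no gene of these lists, and edgeR with the replicate block called 1 enzyme higher at each time and 1 Smad at 24 h. Smad5, a receptor-activated Smad of the BMP branch, was at 7.37±0.628 FPKM without dox and 11.4±1.06 after 24 h, and its log2 difference of 0.62 (adjusted p=0.00594, limma) was short of the minimum. Smad3, of the TGFβ and activin branch, was closer to it, at 4.55±0.902 and 8.97±0.607 FPKM, with a log2 difference of 0.84 (adjusted p=0.0084) at 18 h and 0.98 (adjusted p=0.00338) at 24 h. Smad6, an inhibitory Smad that BMP signalling induces, was at 0.403±0.0341 and 0.719±0.124 FPKM (log2 fold-change 0.69, adjusted p=0.0364). Pcsk6, a proprotein convertase, was at 4.12±0.727 and 2.24±0.332 FPKM (log2 fold-change -0.84, adjusted p=0.0091).

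Genes known as BMP targets held most of the calls among these lists. Of 15, 14 were tested, and 7 were called higher at 18 h and 10 at 24 h. Of all genes tested, 1.33% and 2.07% were called higher at these times. The list was chosen with earlier results of these data known, so these counts are a description only. With the replicate block limma called 8 and 11 targets, which added Msx1 (adjusted p=0.0209 and 0.0158). edgeR called 9 and 11, and DESeq2 10 and 12. None was lower with limma, edgeR or DESeq2 or at an unadjusted p below 0.05. The median log2 fold-change of the list was 1.4 at 18 h and 1.6 at 24 h. What raised these genes was not tested. Id3, which encodes an inhibitor of E proteins, rose from 11.6, 18.8 and 11.9 FPKM without dox to 243, 230 and 265 by 18 h, with 247, 241 and 284 after 24 h. Its log2 fold-change of 4.15 (adjusted p=1.47e-05, limma) and 4.21 (adjusted p=8.82e-06) was the largest among the targets. Id1 rose from 35.8±12.0 FPKM without dox to 213±18.8 after 24 h, and Id4 from 1.02±0.353 to 5.27±0.629. Hand1, a basic helix-loop-helix factor of trophoblast and heart, rose from 1.22±0.385 to 11.6±0.764 FPKM at 24 h. Gata2 and Atoh8 were low, at 0.105±0.0409 and 0.0462±0.0425 FPKM at 0 h and 0.74±0.0643 and 0.577±0.142 at 24 h, and both were called at both times. With a pseudocount of 1 FPKM both lost these calls, with log2 differences of 0.53 and 0.66 for Gata2 and of 0.51 and 0.59 for Atoh8, whose value at 24 h was 2.23 with the pseudocount of 0.1 and 3.87 with 0.01.

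**Figure D4:**
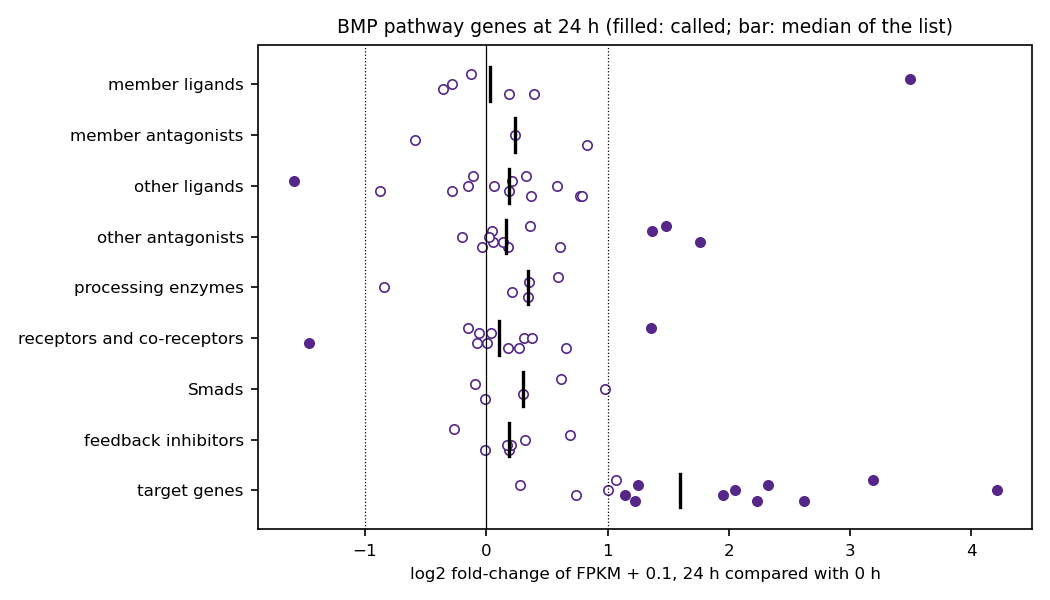
The log2 fold-change at 24 h compared with 0 h, on FPKM plus 0.1, for each tested gene of 9 lists of BMP pathway genes and related TGFβ family genes. Filled symbols mark called genes, a bar the median of each list and dotted lines the minimum of 1. The 10 filled target genes lie to the right, 1 ligand among the members is filled at 3.49 (Bmp7), and no Smad or feedback inhibitor is filled.

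Some neural and trophectoderm markers were also called higher, beside 1.33% of all genes tested at 18 h and 2.07% at 24 h. Of 8 neural markers, 2 were called higher at 18 h and 4 at 24 h by limma. At 18 h the count was 3 with the replicate block, which added Sox1 (adjusted p=0.0541 without and 0.00754 with it), and 4 in edgeR or DESeq2. The summed level of these markers ran from 77.4 to 80.5 FPKM at 0 h and from 114 to 124 at 24 h. Most of it came from Tubb3 (41.5±6.49 and 63.1±14.6 FPKM) and Nes (36.0±7.11 and 47.1±10.8), neither of them called. With the replicate block in limma, both passed the adjusted p at 18 h and 24 h, with sizes under the minimum. The values were 0.00167 and 0.000739 for Tubb3 and 0.00247 and 0.00543 for Nes. Of 8 trophectoderm markers, 3 (Cdx2, Hand1 and Krt8) were called higher at both times. Of these, Hand1 was also counted among the BMP targets above. The 8 markers summed to 319 to 375 FPKM at 0 h and 612 to 815 at 24 h. Most of this sum came from the keratins Krt8 (175±13.8 and 410±64.8 FPKM) and Krt18 (170±14.6 and 289±36.9, not called), while Elf5 was at or below 0.0357 FPKM in all libraries. Of 8 primitive endoderm and 6 mesoderm markers 0 were called by limma, edgeR or DESeq2 at either time, with 1 endoderm marker higher at 24 h and otherwise 0 in either list at an unadjusted p below 0.05. edgeR with the replicate block called 1 endoderm marker lower at 18 h and 1 mesoderm marker lower at 24 h. Their sums at 24 h were 5.24 to 6.14 and 1.62 to 2.29 FPKM, against 4.54 to 5.43 and 1.82 to 2.84 at 0 h. The part of these markers in the level of Bmp7 was not tested.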

How the data were processed

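RNA from 9 libraries (3 time points, 3 replicates) was analysed from tables that the authors deposited. They prepared stranded polyadenylated RNA libraries, trimmed reads with cutadapt 1.9, aligned them to GRCm38 with STAR and used edgeR 3.16.5. The authors made FPKM values for 47729 genes and, for 19210 genes, a signal that is a CPM value scaled by library. The same table, as deposited by the authors, holds log2 values and p-values from their edgeR comparisons, which were not used. Whole reads were recovered from the scaled values (100% within 0.01 of a whole number in every library).

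The main test was limma 3.58.1 (lmFit, eBayes with trend) in R 4.3.3 on log2(FPKM+0.1), for genes averaging at least 0.1 FPKM, on all 9 libraries, with Benjamini–Hochberg adjustment over 17951 genes. This scale understates the change of low genes. edgeR 4.0.16 (quasi-likelihood) and DESeq2 1.42.0 on the recovered reads were alternatives, with other pseudocounts, filters, scalings and each library left out. Scripts were tested on simulated data. No replicate pair was within sampling noise (chi-square over degrees of freedom 5.79 to 17.8). Deviations of same-numbered libraries correlated at 0.211 to 0.548 in 9 pairs, so the numbers pair the libraries, and a replicate block was an alternative.

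Coordinates came from GENCODE M21 (GRCm38), with 47224 of 47729 genes matched, and promoters from RefSeq (GRCm38.p6). The floor of 3 reads covers counting error only. The named genes were all members, called genes and the most abundant others of each list (at most 6 and 3), neighbours of members, and the 3 genes most like a called member. Nanog, Klf4, Tfcp2l1, Sox2, Esrrb, Smad3, Smad6, Pcsk6, Bmpr2, Bmp8a, Elf5, Thy1, Col3a1, Postn and Tcf3 were named after their values were seen. Members and lists were chosen with earlier results of these data known. A protocol label gives times of 24 h and 48 h, and the times in the sample titles were used.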

Additional observations from a re-analysis of the deposited data

How the results depend on the processing

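The members were recomputed under 22 alternatives for each count. Bmp7 was called at both times in every fit, with a log2 fold-change of 2.58 to 3.41 at 18 h and 2.79 to 3.63 at 24 h, and with the replicate block, which pairs the libraries, its adjusted p was 1.35e-06 and 8.47e-07. With no minimum fold-change 2 members were higher at 24 h. In edgeR with the replicate block, Bmp4 at 18 h (adjusted p=0.0324), Fst at both times (0.0248 and 0.017) and Chrd at both times (0.0093 and 0.000226) passed the threshold with sizes under the minimum, as did Chrd at 18 h in DESeq2 (0.0398). The block changed the call of no member.

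Values close to 0 changed sign. Bmp8b at 18 h was -0.025 with median centring and -0.023 with quantile normalization, and Nog at 24 h compared with 18 h was -0.016 and -0.017. Leaving out single libraries gave ranges of -0.079 to 0.084 (Bmp8b), -0.45 to 0.11 (Bmp6) and -0.55 to 0.011 (Gdf6) at 18 h, -0.12 to 0.46 (Gdf6) and -0.12 to 0.74 (Nog) at 24 h, and -0.42 to 0.11 (Bmp2), -0.18 to 0.29 (Bmp4), -0.39 to 0.081 (Bmp6), -0.34 to 0.52 (Nog) and -0.21 to 0.26 (Fst) at 24 h compared with 18 h. The cause was not tested.

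The alternatives for the other pathway genes were added after seeing the data. At 18 h, 16 were higher in edgeR with the replicate block, 17 with no minimum fold-change and 5 at a minimum of 2, where 0 were lower. At 24 h, 6 were higher with a pseudocount of 1, a mean FPKM of at least 1 or a minimum of 2, and 23 with no minimum. At 24 h, 1 was lower with a pseudocount of 1, no filter, a mean of at least 1 or only the time points compared, 4 with no minimum, 0 at a minimum of 2, and 1 to 2 when single libraries were left out. Over all genes, 49 to 766 were higher at 18 h and 66 to 1171 at 24 h, 18 to 667 and 20 to 917 were lower, and 0 to 7 were higher and 0 to 5 lower between 24 h and 18 h. Grem1, Bmp2, Bmp6 and Gdf6 had at most 51 reads in a library, and how far depth or replicate spread limits their comparisons was not tested.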
